A study of Homo sapiens with 36 samples.

Results

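Epithelial cells are held together by cell junctions, and the transcripts of 10 junction genes were followed here in A549, an established human lung adenocarcinoma line. The 10 genes were set as a list by their function, with earlier results of these data known. They were CDH1 and JUP of the adherens junction, CLDN1, CLDN2, CLDN12, OCLN, F11R and TJP1 of the tight junction, DSP of the desmosome, and EPCAM. All 10 were found among the 63677 genes of the count tables, and all 10 passed the filter on low counts that left 19180 genes for testing. A549 cells were grown in RPMI medium with 10% fetal bovine serum, either untreated or with the inflammatory cytokine IL-1β at 1 ng/ml, and were split every 3 to 4 days. RNA was sequenced on days 6, 15 and 21 with IL-1β present. Cells exposed for 21 days were then freed of the cytokine and sequenced 6, 15 and 30 days later. Untreated cells were collected beside the exposed cells at each time point, which gave 12 groups of 3 libraries and 36 libraries in all. The labels name no genetic change in any group, and all groups stem from this single line. The labels call the 3 libraries of a group biological replicates without saying how the cultures were separated, so the p-values measure the spread between these libraries.

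Junctions are built from transmembrane adhesion proteins and the cytoplasmic plaque proteins that tie them to the cytoskeleton. Adherens junctions join E-cadherin to actin through catenins, desmosomes join desmosomal cadherins to keratin filaments through plakoglobin and desmoplakin, and tight junctions seal the space between cells with claudins, occludin and junctional adhesion molecules bound to zonula occludens scaffolds. Loss of these proteins is a defining trait of the epithelial to mesenchymal transition (EMT), in which transcription factors of the Snail and ZEB families are known to repress junction genes. The comparisons asked which junction transcripts moved with IL-1β, and which of them were still displaced after the cytokine had been removed.

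Reads assigned to genes numbered 9116032 to 23570026 per library. In 11 libraries, 6 untreated and 5 IL-1β, mitochondrial genes took 11.8% to 24.6% of these counts, against 5.61% to 7.75% in the other 25, and the values without these 11 libraries are given where they changed a call. The epithelial markers KRT7, KRT8, KRT18 and KRT19 summed to 4010 to 8869 CPM (counts on a gene relative to the library's counts on all genes, scaled by TMM) in the 18 untreated libraries. In the 18 IL-1β libraries, which here include those collected after withdrawal, they summed to 1948 to 6501 CPM. KRT19 was under 1 CPM in every library. KRT8 and KRT18, keratins of simple epithelia, passed as lower at days 6, 15 and 21, with an adjusted p under 0.05 and a fold change over 2 in edgeR's test (log2 fold changes of -2.09, -2.39 and -1.89 for KRT8 and of -1.83, -2.28 and -1.89 for KRT18), and KRT18 also at day 6 after withdrawal (-1.21). KRT7 passed at no time point. The part of KRT8 and KRT18 in the changes of the junction genes was not tested. In these bulk samples fewer cells with a transcript and less of it per cell cannot be told apart. The mesenchymal markers VIM, FN1, CDH2 and SPARC summed to 839 to 1436 CPM in untreated libraries and to 947 to 2088 CPM in IL-1β libraries. Among them SPARC passed as higher at days 15 and 21 (2.15 and 2.49) at low levels. Its means were 0.197 and 0.179 CPM in untreated cells and 0.959 and 1.06 CPM with IL-1β. FN1, or fibronectin, passed as lower at days 15 and 30 after withdrawal (-1.07 and -1.74), and VIM and CDH2 passed at no time point. Of the 5 fibroblast markers, all but COL1A1 were under 1 CPM in every library. COL1A1 passed as higher at days 6 and 21 (1.02 and 1.24) at low levels. Its means were 1.17 and 1.03 CPM in untreated cells and 2.38 and 2.43 CPM with IL-1β. The leukocyte markers PTPRC and CD68 were under 1 CPM and CD3E at 0 in all libraries while LYZ reached 1 CPM in at least 1 IL-1β library, and the 3 endothelial markers found summed to at most 0.348 CPM.

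Per length of exon, the junction genes of untreated cells spanned a wide range of levels. Over the 18 untreated libraries, the median level was 38.9 CPM per kb for CDH1 and 36.1 for TJP1, followed by 17.3 for JUP and 14.4 for DSP. CLDN1 (9.46 CPM per kb), CLDN2 (7.86), CLDN12 (6.55) and F11R (6.46) formed a middle group whose ranges overlapped. OCLN lay lower, with a median of 2.95 CPM per kb. EPCAM stood far below the rest, with a median of 0.424 CPM per kb and a highest value of 0.669, and was counted with only 4 to 32 reads per library. Transcripts of this epithelial marker were thus scarce in untreated cells of this line.

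**Figure D1:**
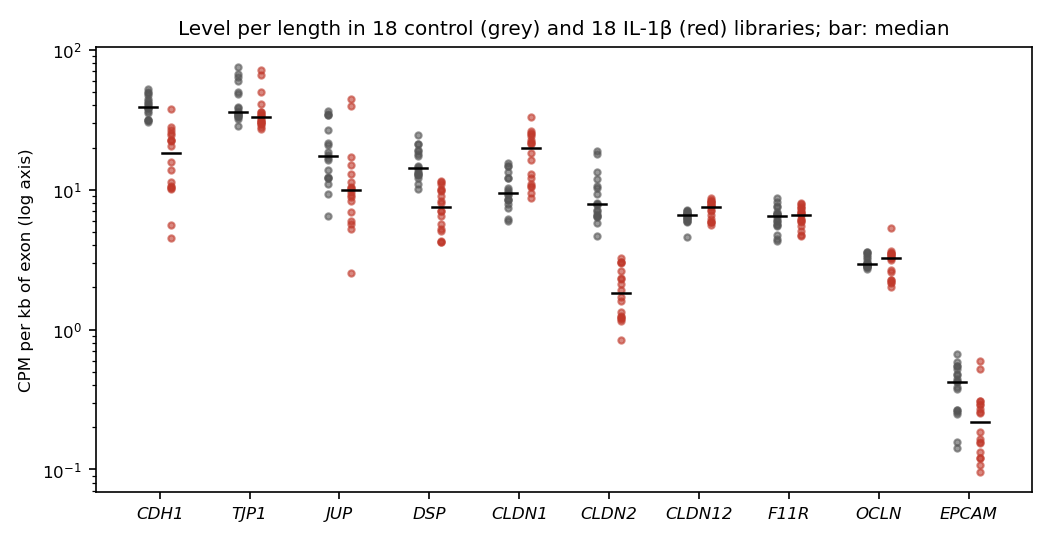
CPM per kb of exon, on a log axis, of the 10 junction genes in the 18 untreated (grey) and 18 IL-1β (red) libraries, each point a library of any time point, those after withdrawal included, and each bar the median. CDH1 and TJP1 lie highest in untreated cells, EPCAM lies lowest in both conditions, and the untreated and IL-1β libraries separate most for CLDN2 (medians of 7.86 and 1.82 CPM per kb).

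IL-1β lowered 3 junction genes and raised 1. CDH1, CLDN2 and DSP were lower and CLDN1 was higher at days 6 and 21, while at day 15 CDH1 and CLDN2 were lower and CLDN1 was higher, each with an adjusted p under 0.05 and a fold change over 2. Thus 3, 2 and 3 of the 10 genes passed in the lower direction at days 6, 15 and 21, against 1.25%, 2.3% and 2.06% of all genes tested, and 1 gene passed in the higher direction each time, against 1.52%, 1.94% and 2.19%. After withdrawal, CDH1 and CLDN2 passed at day 6 and CLDN2 alone at days 15 and 30, all lower, that is 2, 1 and 1 of 10 against 0.725%, 0.36% and 0.464% of all genes. The other 6 genes passed at no time point. Because the 10 genes were chosen with earlier results of these data known, their counts here and below are descriptions. The p-values are those of edgeR's quasi-likelihood test on all 36 libraries, with Benjamini-Hochberg adjustment over the 19180 genes. The median log2 fold change of the 10 genes was -0.15, -0.30 and -0.37 at days 6, 15 and 21 and -0.27, -0.67 and -0.61 at days 6, 15 and 30 after withdrawal, where the median of all genes lay between -0.02 and 0.02.

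**Figure D2:**
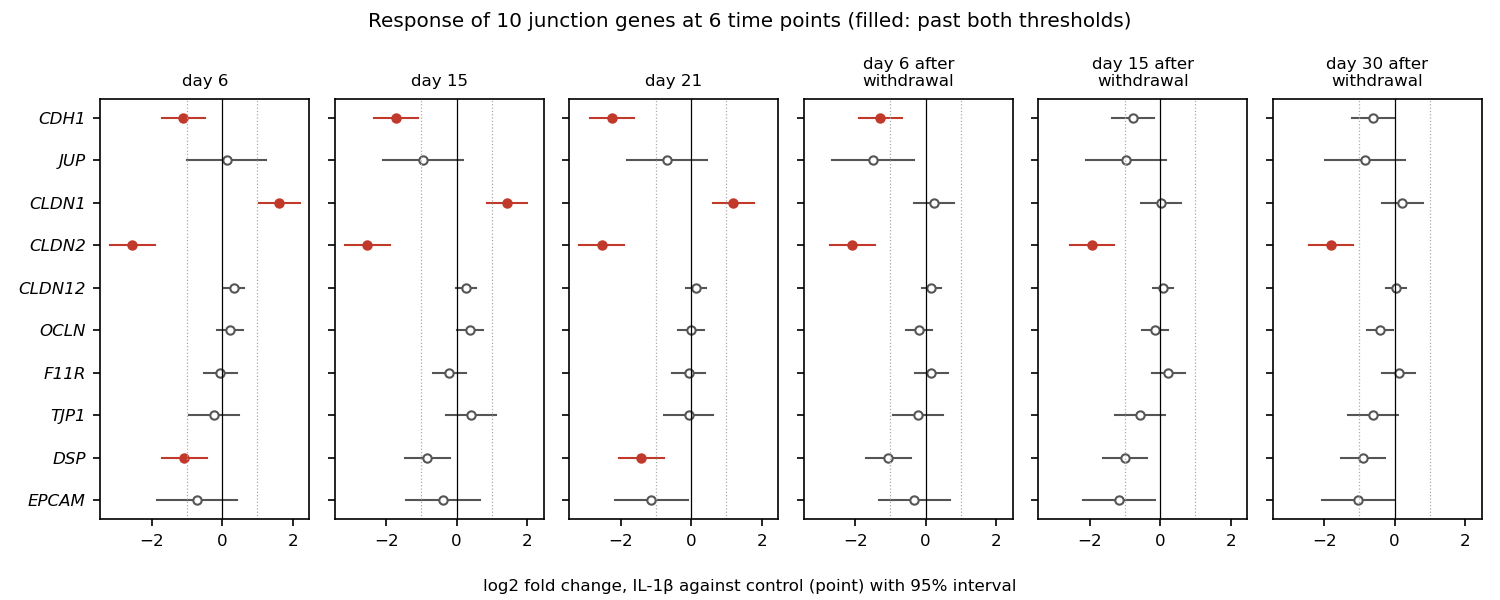
Log2 fold change of IL-1β against untreated cells (points) with its 95% interval (lines) for the 10 junction genes at 6 time points, with filled red points for genes past both thresholds and dotted lines at a fold change of 2. CLDN2 lies near -2.5 throughout exposure and at -1.80 on day 30 after withdrawal, CDH1 moves from -1.10 to -2.24 during exposure and back to -0.61, and CLDN1 moves from 1.63 to near 0.

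The proximal promoters of 3 genes that passed are shown because they differed in response: CLDN2 and DSP were lower with IL-1β and CLDN1 was higher. Each line is the 250 bases before a transcription start in RefSeq (GRCh38.p14), read on the strand of the gene. Capitals mark CACCTG or CAGGTG, which are the same motif on opposite strands and the form of E-box known to be bound by Snail and ZEB factors, and TGANTCA, the AP-1 motif.
DSP, chr6:7541421-7541670, plus strand: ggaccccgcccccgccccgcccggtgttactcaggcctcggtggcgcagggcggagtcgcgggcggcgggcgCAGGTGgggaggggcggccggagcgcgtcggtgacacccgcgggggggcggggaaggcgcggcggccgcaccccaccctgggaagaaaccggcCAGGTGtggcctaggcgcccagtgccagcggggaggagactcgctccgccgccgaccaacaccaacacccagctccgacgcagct
CLDN2, chrX:106899914-106900163, plus strand: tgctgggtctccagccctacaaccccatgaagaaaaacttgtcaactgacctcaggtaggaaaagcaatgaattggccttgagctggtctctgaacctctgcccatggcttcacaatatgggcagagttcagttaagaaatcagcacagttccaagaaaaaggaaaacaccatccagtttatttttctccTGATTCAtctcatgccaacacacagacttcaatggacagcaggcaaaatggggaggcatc
CLDN1, chr3:190322447-190322696, minus strand: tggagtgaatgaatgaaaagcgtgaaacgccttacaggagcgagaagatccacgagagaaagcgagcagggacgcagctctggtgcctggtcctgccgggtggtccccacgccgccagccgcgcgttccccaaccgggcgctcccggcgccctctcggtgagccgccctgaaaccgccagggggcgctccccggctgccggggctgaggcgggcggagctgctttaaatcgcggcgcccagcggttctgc
DSP held the E-box motif at 178 and 85 bases upstream of its start. The CLDN2 start shown held the AP-1 motif once, its other start (chrX:106918110-106918359) did not, and neither held an E-box of this form. CLDN1 held neither motif. RefSeq entries were matched for 7 of the 10 genes, with 13 starts in all, and 5 of these starts, in OCLN, DSP, TJP1 and JUP, held the E-box. No entry was matched for CDH1, EPCAM and F11R, so their promoters were not searched for either motif. Among 35116 promoter windows of the same length, 17.5% held the E-box and 6.57% the AP-1 motif. OCLN, TJP1 and JUP, which held the E-box at 2 of 2, 1 of 4 and 1 of 2 starts, passed the thresholds at no time point. A match is a stretch of letters and says nothing about binding in these cells.

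CDH1 (ENSG00000039068, GRCh37 chr16:68771195-68869440, plus strand) encodes E-cadherin, the calcium-dependent adhesion protein of adherens junctions. At day 6 its level was 299.8, 319 and 239 CPM in the 3 untreated libraries and 154, 162 and 83.3 CPM with IL-1β, in the order of replicates 1 to 3. By day 21 it was 192, 185 and 213 CPM in untreated cells and 34.1, 27.5 and 63.1 CPM with IL-1β. No IL-1β library reached the lowest untreated library at either time, nor at day 15, when the levels were 231, 222 and 305 CPM against 69.5, 64.8 and 95.2 CPM. CDH1 was thus 2.15-fold lower at day 6 (log2 fold change -1.10 ± 0.29 SE, adjusted p = 0.0245), 3.31-fold lower at day 15 (-1.73 ± 0.30, adjusted p = 0.000229) and 4.72-fold lower at day 21 (-2.24 ± 0.30, adjusted p = 7.15e-06). The responses at days 21 and 6 differed by -1.13 ± 0.41 on the log2 scale, which did not pass adjustment (adjusted p = 1.00 in edgeR's test) but passed without replicate 3 (-1.66, adjusted p = 0.000794).

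After withdrawal the mean of CDH1 stood below the untreated mean at every time point, with a smaller log2 fold change each time. Between days 6 and 30 after withdrawal the response moved by 0.68 ± 0.41, which did not pass (edgeR's unadjusted p = 0.108). At day 6 after withdrawal the untreated libraries held 190.2, 191 and 260.4 CPM and those previously exposed 62.4, 61.2 and 138 CPM. At day 30 these levels were 252, 248 and 291 CPM against 138, 151 and 230.2 CPM. The groups did not overlap at either time or at day 15 (231, 233 and 272 CPM against 126, 136 and 171 CPM). The log2 fold change was -1.29 ± 0.30 at day 6 (adjusted p = 0.0105), -0.77 ± 0.29 at day 15 (adjusted p = 0.323) and -0.61 ± 0.29 at day 30 (adjusted p = 0.580), so that 57.7%, 34.2% and 27.2% of the day 21 log2 fold change was present. From day 21 to day 30 after withdrawal the log2 fold change moved by 1.63 ± 0.41 (edgeR's adjusted p = 0.0641). With the replicate number as a block over all 36 libraries, the difference was 1.65 ± 0.36 (edgeR's adjusted p = 0.0140). The numbers were not shown to pair the libraries at every time point. The call at day 21 held in all 13 alternative analyses. Those at day 6 of exposure and at day 6 after withdrawal were lost without replicate 1 (adjusted p = 0.421 and 0.621) and without replicate 2 (0.156 and 0.196). They were lost too when the libraries rich in mitochondrial counts were left out (log2 fold change -1.0 with adjusted p = 0.0443, under the fold threshold, and -1.36 with adjusted p = 0.0678), which leaves a single untreated library at day 6 after withdrawal, and on scaling by total counts alone (adjusted p = 0.122 and 0.0582). The call at day 6 after withdrawal was lost as well in a separate fit of its 6 libraries (adjusted p = 0.348), while the day 15 call was lost without replicate 1 (adjusted p = 0.0693) and the day 6 log2 fold change was -0.95, under the fold threshold, without replicate 3.

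**Figure D3:**
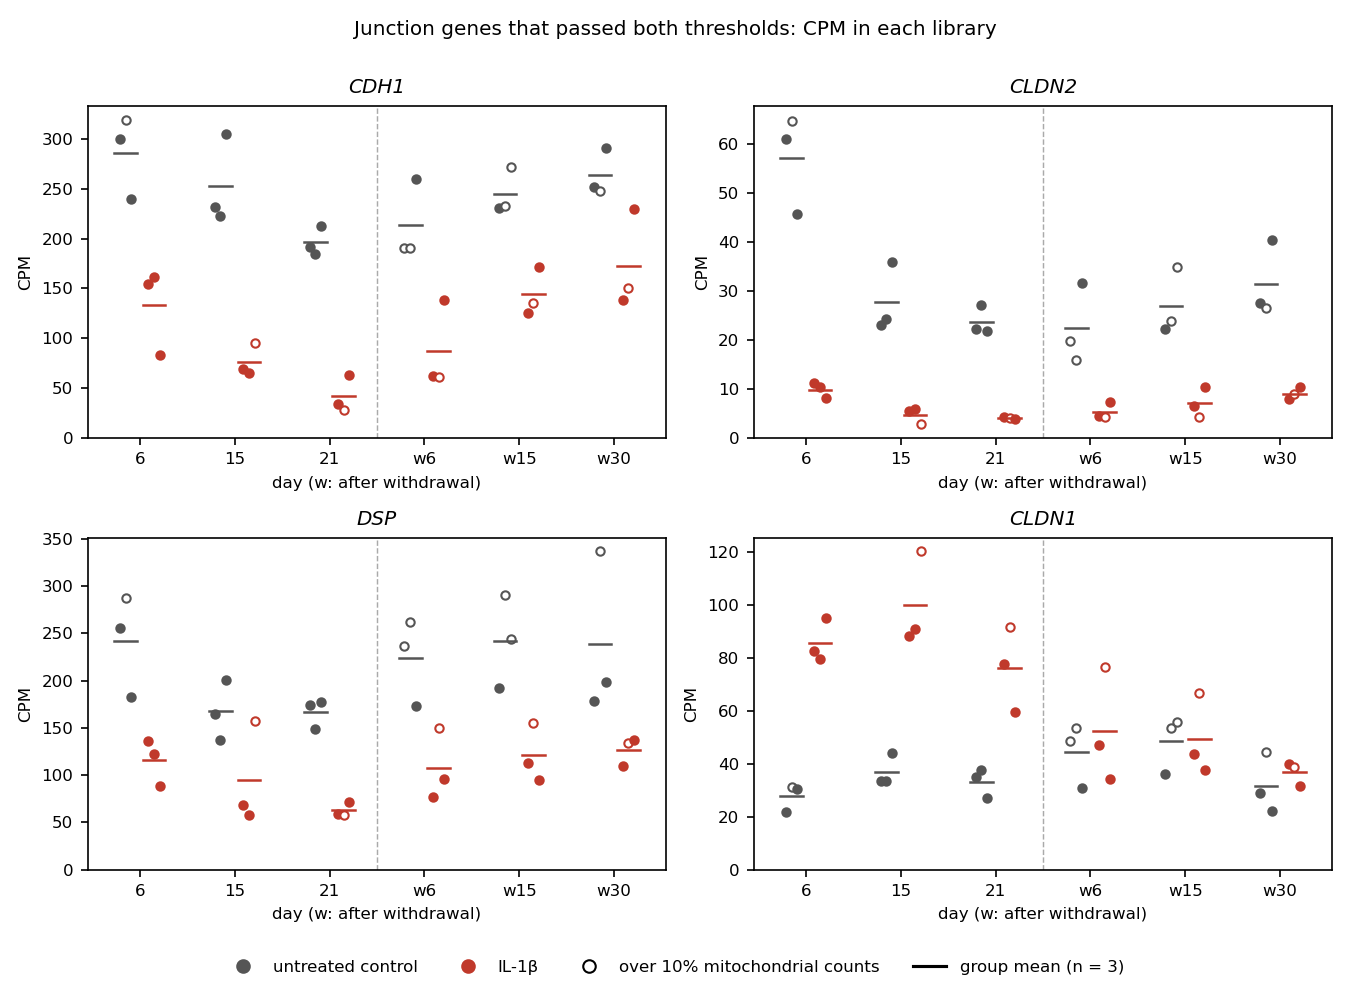
CPM in each library (points) and group mean (bars, n = 3) of the 4 junction genes past both thresholds, at days 6, 15 and 21 with IL-1β and, right of the dashed line, days 6, 15 and 30 after withdrawal (w), with open points for libraries over 10% mitochondrial counts. IL-1β libraries of CDH1 and CLDN2 lie below the untreated libraries at all 6 time points, whereas those of CLDN1 lie above them at days 6, 15 and 21 and overlap them after withdrawal.

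JUP (ENSG00000173801, GRCh37 chr17:39910856-39943183, minus strand) encodes plakoglobin, also called gamma-catenin, a plaque protein shared by adherens junctions and desmosomes. Its libraries spread from 12.6 to 221 CPM, with wide gaps between replicates. At day 6 the untreated libraries held 179.9, 169 and 87.9 CPM and the IL-1β libraries 221, 196 and 63.6 CPM, and the groups overlapped. At day 6 after withdrawal the values were 82.9, 46.2 and 132 CPM against 29.4, 12.6 and 50.9 CPM, with the highest exposed library just above the lowest untreated library. This was its largest difference, a log2 fold change of -1.49 ± 0.56 (adjusted p = 0.242), and with the mitochondrial share as a covariate it was -1.77 with an adjusted p of 0.0202. The log2 fold change was 0.14 at day 6 and lay between -0.97 and -0.67 at days 15 and 21 and at days 15 and 30 after withdrawal, with standard errors of 0.55 and adjusted p-values of 0.392 or more. At days 15 of exposure and of withdrawal the groups did not overlap.

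CLDN2 (ENSG00000165376, GRCh37 chrX:106143394-106174091, plus strand) encodes claudin-2, which forms paracellular channels for cations and water. It had the largest log2 fold change of the 10 genes at all 6 time points. At day 6 it lay at 61.1, 64.8 and 45.7 CPM in untreated cells and at 11.1, 10.3 and 8.04 CPM with IL-1β. At day 21 the values were 22.3, 27.1 and 21.8 CPM against 4.29, 4.04 and 3.90 CPM. The highest IL-1β library lay under the lowest untreated library at each time, day 15 included (23.0, 24.4 and 36 CPM against 5.46, 5.87 and 2.90 CPM). CLDN2 was 5.83-fold lower at day 6, 5.77-fold lower at day 15 and 5.82-fold lower at day 21, with log2 fold changes of -2.54 ± 0.31, -2.53 ± 0.31 and -2.54 ± 0.31 and adjusted p-values of 1.98e-06, 1.94e-06 and 1.72e-06. The levels themselves were lower at day 21 than at day 6 in both conditions, while the ratio between them moved by less than its standard error. These 3 calls held in all 13 alternatives.

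After withdrawal CLDN2 was the one junction gene past both thresholds at all time points. The untreated libraries held 19.9, 16.0 and 31.7 CPM at day 6, 22.1, 23.9 and 34.9 CPM at day 15, and 27.5, 26.5 and 40.5 CPM at day 30. In the previously exposed cells the levels were 4.53, 4.17 and 7.24 CPM at day 6, 6.54, 4.15 and 10.3 CPM at day 15, and 7.87, 8.97 and 10.3 CPM at day 30. At no time point did the groups overlap. The log2 fold change was -2.08 ± 0.31 at day 6 (adjusted p = 0.000123), -1.93 ± 0.30 at day 15 (adjusted p = 0.000536) and -1.80 ± 0.30 at day 30 (adjusted p = 0.00117). Thus 81.6%, 75.9% and 70.8% of the day 6 exposure log2 fold change was present, and the change in response between day 21 and day 30 after withdrawal, 0.74 ± 0.42, did not pass (adjusted p = 0.923). CLDN2 in untreated cells was also lower at the day 30 collection than at day 6 by a log2 difference of -0.86 ± 0.29 (edgeR's adjusted p = 1.00). All 3 calls after withdrawal were lost without replicate 1 (adjusted p = 0.116, 0.184 and 0.248) and when each time point was fitted on its own 6 libraries (0.120, 0.212 and 0.225). The day 15 call was also lost without replicate 2 (adjusted p = 0.0617) and on leaving out the libraries rich in mitochondrial counts (-1.37, adjusted p = 0.0879), which leaves a single untreated library there.

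CLDN1 (ENSG00000163347, GRCh37 chr3:190023496-190040235, minus strand) encodes claudin-1, a sealing claudin of the tight junction barrier, and it moved the opposite way. At day 6 the 3 untreated libraries held 21.6, 31.1 and 30.5 CPM and the IL-1β libraries 82.6, 79.5 and 94.9 CPM. At day 15 they held 33.7, 33.4 and 44 CPM against 88.4, 91.0 and 121 CPM, and at day 21 35.0, 37.5 and 26.9 CPM against 77.8, 91.6 and 59.5 CPM. Every IL-1β library lay above every untreated library at these 3 times. CLDN1 was 3.09-fold higher at day 6 (log2 fold change 1.63 ± 0.28, adjusted p = 0.000302), 2.70-fold higher at day 15 (1.43 ± 0.28, adjusted p = 0.000975) and 2.30-fold higher at day 21 (1.2 ± 0.28, adjusted p = 0.00514). At day 6 after withdrawal the groups overlapped, at 48.6, 53.4 and 30.8 CPM in untreated cells and 47.0, 76.5 and 34.1 CPM in those previously exposed. The log2 fold change was then 0.25 ± 0.28, followed by 0.03 ± 0.28 at day 15 and 0.22 ± 0.28 at day 30, with 95% intervals that reached no further than 0.82. At day 6 after withdrawal untreated replicates 1 and 2 and exposed replicate 2 were rich in mitochondrial counts. At day 15 untreated replicates 2 and 3 and exposed replicate 2 were. Untreated CLDN1 had a median of 51.0 CPM in the 6 libraries rich in such counts and 32.1 CPM in the other 12, with overlapping ranges. From day 21 to day 30 after withdrawal the log2 fold change of CLDN1 moved by -0.98 ± 0.39 (edgeR's adjusted p = 0.545). Without replicate 1 the calls at days 6, 15 and 21 were lost (adjusted p = 0.140, 0.117 and 0.245) at log2 fold changes of 1.52, 1.47 and 1.23.

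CLDN12, OCLN and F11R had small log2 fold changes, from -0.40 to 0.38 over the 6 time points. CLDN12 (ENSG00000157224, GRCh37 chr7:90013035-90142716, plus strand), a claudin without the usual binding motif for scaffold proteins, was at 45.1, 42.3 and 45.7 CPM in untreated cells and at 54.8, 58.4 and 55.8 CPM with IL-1β at day 6. The groups did not overlap there or at day 15, yet the change was small, with log2 fold changes of 0.34 ± 0.14 (adjusted p = 0.217) and 0.27 ± 0.13 (adjusted p = 0.310). OCLN (ENSG00000197822, GRCh37 chr5:68788119-68853931, plus strand) encodes occludin, a membrane protein of the tight junction strand. Its levels were 33.7, 32.7 and 35.9 CPM in untreated cells at day 6 and 39.9, 40.8 and 39.9 CPM with IL-1β, a log2 fold change of 0.24 ± 0.18 (adjusted p = 0.787). At day 30 after withdrawal OCLN lay at 30.6, 40.4 and 31.4 CPM against 22.9, 24.4 and 29.9 CPM, with no overlap and a log2 fold change of -0.40 ± 0.18 (adjusted p = 0.504). F11R (ENSG00000158769, GRCh37 chr1:160965001-160991133, minus strand) encodes junctional adhesion molecule A, and its groups overlapped at all 6 time points. Its log2 fold changes lay between -0.21 and 0.23, and none of their 95% intervals went beyond -0.68 or 0.70, so that a change of 2-fold in F11R lay outside the intervals.

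TJP1 (ENSG00000104067, GRCh37 chr15:29991571-30261118, minus strand) encodes ZO-1, the scaffold that ties claudins and occludin to actin. It did not pass at any time point, with log2 fold changes between -0.61 and 0.40 and standard errors of 0.34. Its level differed with the mitochondrial share of the library. The 6 untreated libraries of high share held 547 to 849 CPM of TJP1 and the other 12 held 322 to 439 CPM, with no overlap. Among IL-1β libraries the 5 of high share held 391 to 814 CPM and the other 13 held 306 to 409 CPM. At day 15 the IL-1β libraries of replicates 1 and 2 held 409 and 383 CPM, and that of replicate 3, which was of high share, held 814 CPM. TJP1 was not alone in this. Untreated medians at high share and otherwise were 51.0 and 32.1 CPM for CLDN1, 25.8 and 33.9 CPM for F11R, and 67.1 and 97.2 CPM for JUP. The ranges of these genes overlapped.

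DSP (ENSG00000096696, GRCh37 chr6:7541571-7586947, plus strand) encodes desmoplakin, which anchors keratin filaments to the desmosome. At day 6 it lay at 256, 288 and 183 CPM in untreated cells and at 136, 122 and 88.1 CPM with IL-1β. At day 21 the untreated libraries held 174, 149 and 177 CPM and the IL-1β libraries 58.7, 57.9 and 71.8 CPM. No overlap was seen at either time, whereas at day 15 the IL-1β libraries (68.6, 57.9 and 157 CPM) reached into the untreated range (165, 138 and 200.4 CPM) through replicate 3. DSP was 2.10-fold lower at day 6 (log2 fold change -1.07 ± 0.30, adjusted p = 0.0401) and 2.66-fold lower at day 21 (-1.41 ± 0.31, adjusted p = 0.00300), and at day 15 its log2 fold change was -0.83 ± 0.30 (adjusted p = 0.117). After withdrawal the untreated libraries held 236, 262 and 174 CPM at day 6, 192, 290.4 and 244 CPM at day 15, and 179, 337 and 199 CPM at day 30. The previously exposed libraries held 77.0, 149.7 and 96.4 CPM, then 113, 155 and 95.1 CPM, then 109.9, 134 and 137 CPM. All 3 of these pairs of groups were free of overlap, but the log2 fold changes of -1.06 ± 0.31, -1.0 ± 0.30 and -0.91 ± 0.30 did not pass (adjusted p = 0.0602, 0.120 and 0.205). These values are 75.1%, 70.9% and 64.4% of that at day 21, and the difference in response between day 30 after withdrawal and day 21 was 0.50 ± 0.43 (adjusted p = 0.955).

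The DSP calls depended on the libraries and on the scaling. The day 6 call held in 5 of 13 alternatives. It was lost without replicate 1, 2 or 3 (adjusted p = 0.456, 0.178 and 0.115), with DESeq2's size factors in edgeR (adjusted p = 0.0527) and on scaling by total counts alone, where it fell under the fold threshold (-0.96, adjusted p = 0.0114). At day 6 after withdrawal DSP passed in 5 of 13 alternatives, DESeq2 among them (-1.05, adjusted p = 0.0357). The day 21 call was lost without replicate 1 (adjusted p = 0.216). Day 15 passed without replicate 3 (-1.25, adjusted p = 0.0416) and on leaving out the libraries rich in mitochondrial counts (-1.40, adjusted p = 4.20e-05), where day 6 fell under the fold threshold (-0.90, adjusted p = 0.00266). Like TJP1, DSP was higher in untreated libraries of high mitochondrial share (236 to 337 CPM) than in the other untreated libraries (138 to 256 CPM), though with overlap. Its IL-1β libraries held 57.9 to 157 CPM at high share and 57.9 to 137 CPM otherwise.

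EPCAM (ENSG00000119888, GRCh37 chr2:47572297-47614740, plus strand) encodes an epithelial cell adhesion molecule, and its values rest on few reads. At day 21 it lay at 0.627, 0.603 and 1.27 CPM in untreated cells and at 0.326, 0.374 and 0.451 CPM with IL-1β. At day 15 after withdrawal the values were 1.04, 1.33 and 1.63 CPM against 0.385, 0.655 and 0.699 CPM, and at day 30 1.02, 1.42 and 1.08 CPM against 0.611, 0.260 and 0.748 CPM. The groups did not overlap at these 3 times. The log2 fold change was -1.13 ± 0.51 at day 21 (adjusted p = 0.287), -1.16 ± 0.49 at day 15 after withdrawal (adjusted p = 0.451) and -1.04 ± 0.49 at day 30 (adjusted p = 0.570). The other 3 time points gave -0.71, -0.38 and -0.32 in the order of collection, with overlapping groups.

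**Figure D4:**
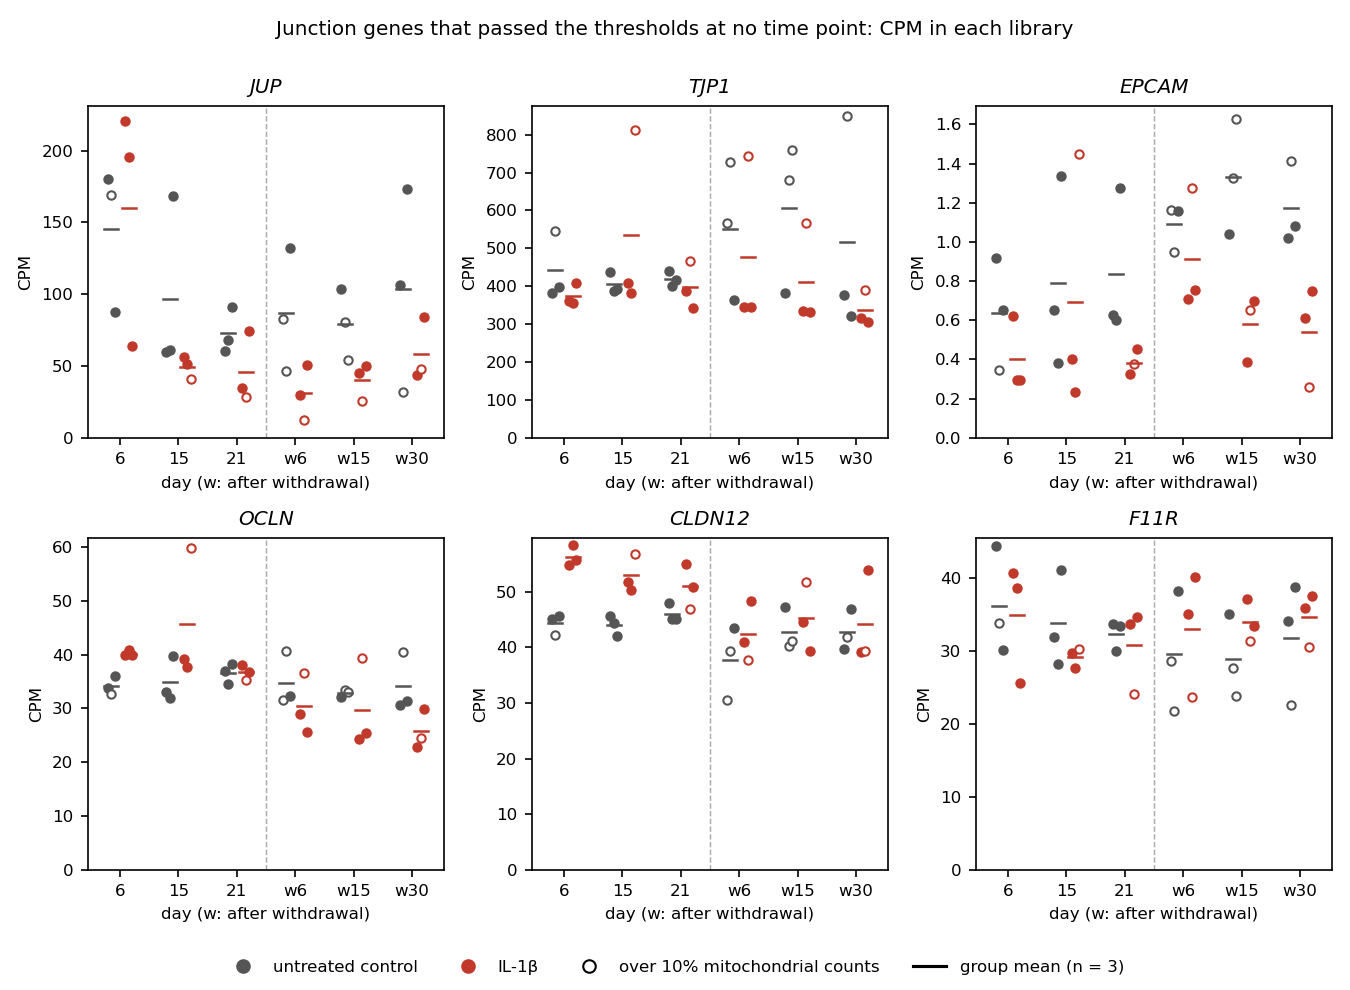
CPM in each library (points) and group mean (bars, n = 3) of the 6 junction genes that passed the thresholds at no time point, laid out and coloured as for the genes that passed. The open points of TJP1, libraries over 10% mitochondrial counts, lie highest within their groups, JUP spreads from 12.6 to 221 CPM, and EPCAM stays under 1.63 CPM in all but 1 untreated library, which held that value.

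Groups that do not overlap were more common than calls. At days 6, 15 and 21 the IL-1β libraries of 3, 3 and 4 junction genes all lay below the untreated libraries, as did those of 11.2%, 13.9% and 15.2% of all genes tested. Those of 3, 2 and 1 junction genes all lay above, against 10.6%, 11.5% and 13.8% of all genes. At days 6, 15 and 30 after withdrawal 3, 5 and 5 junction genes lay wholly below, against 5.24%, 4.9% and 5.11% of all genes, and 0 lay wholly above, against 5.51%, 6.02% and 6.78%. CDH1, CLDN2 and DSP were among these genes at all 3 withdrawal times, with JUP and EPCAM at day 15 and OCLN and EPCAM at day 30.

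Whether responses differed between time points was tested directly. None of the 10 genes passed for day 21 against day 6, where 0.0104% of all genes did, nor for day 6 after withdrawal against day 21 (0.136%), day 30 after withdrawal against day 21 (0.626%) or day 30 against day 6 after withdrawal (0.00521%). An unadjusted p under 0.05 was reached by 1, 2, 2 and 0 of the 10 genes in edgeR's test, against 2.24%, 2.81%, 6.05% and 2.87% of all genes, and DESeq2 passed 0, 0, 1 and 0, the 1 being CDH1. CDH1 and CLDN1 were the genes with an unadjusted p under 0.05 in both comparisons of withdrawal with day 21, CDH1 with a positive and CLDN1 with a negative difference, each toward the untreated level. For CLDN2 and DSP the differences of 0.74 ± 0.42 and 0.50 ± 0.43 had 95% intervals from -0.13 to 1.61 and from -0.38 to 1.38, which hold both no return and a return of more than 2-fold. In the comparison of the last with the first untreated collection, 0 of 10 genes passed in edgeR's test or in DESeq2, where 0.0104% of all genes passed in edgeR's test, and 1 (CLDN2) had an unadjusted p under 0.05, against 1.94% of all genes.

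Few genes of the wider junction lists passed. Of 10 other adherens junction genes tested (catenins, nectins and other cadherins among them), 0 passed at any time point in edgeR's test or in DESeq2. An unadjusted p under 0.05 was reached by 5, 2 and 2 of them at days 6, 15 and 21, against 11.8%, 17.1% and 13.7% of all genes, and by 3, 2 and 4 at days 6, 15 and 30 after withdrawal, against 9.59%, 8.75% and 8.35%. Of 22 other tight junction genes, CGN and CXADR passed in the lower direction and CGNL1 in the higher. At days 6, 15 and 21 that was 1, 2 and 2 lower, and at days 6, 15 and 30 after withdrawal 2, 1 and 0 lower, where the lower calls were 1.25%, 2.3%, 2.06%, 0.725%, 0.36% and 0.464% of all genes. CGN, which encodes the plaque protein cingulin, was at 22.4 ± 0.698 CPM in untreated cells and 8.03 ± 0.880 CPM with IL-1β at day 21 (SD, n = 3, log2 fold change -1.48 ± 0.23 SE, adjusted p = 3.96e-05), and it passed at all time points but day 30 after withdrawal (-0.82 ± 0.22, adjusted p = 0.0661). CXADR, a virus receptor and adhesion protein of the tight junction, was at 32.5 ± 2.80 CPM in untreated cells and 7.84 ± 2.66 CPM with IL-1β at day 21 (-2.04 ± 0.22, adjusted p = 2.07e-07). CXADR passed also at day 15 of exposure and at day 6 after withdrawal. At day 15 after withdrawal it was at -0.94 ± 0.21 (edgeR's adjusted p = 0.0187), under the fold threshold, and at day 30 at -0.62 ± 0.21 (adjusted p = 0.212). It was the 1 gene of this list whose response differed between day 30 after withdrawal and day 21. CGNL1, or paracingulin, passed at day 6 alone (1.11 ± 0.30, adjusted p = 0.0291). Of 9 other desmosome genes, PPL, which encodes the keratin-binding protein periplakin, passed at days 15 and 21 (-1.30 ± 0.33 and -1.35 ± 0.33, adjusted p = 0.0118 and 0.00770) and lay at 0.17 ± 0.32 on day 30 after withdrawal. Among the 22 tight junction genes, 6, 6 and 4 had an unadjusted p under 0.05 in edgeR's test at days 6, 15 and 21. After withdrawal 3, 2 and 3 of them did. Among the 9 desmosome genes these counts were 3, 6 and 4, then 2, 1 and 1. The shares of all genes are those given for the adherens junction genes. These lists were chosen with results of these data known, so their counts are descriptions.

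Among 5 EMT transcription factors known to repress junction genes, SNAI2 and ZEB2 rose, which was 1, 2 and 2 of 5 at days 6, 15 and 21 and 2 of 5 at day 6 after withdrawal, against 1.52%, 1.94%, 2.19% and 1.08% of all genes in the higher direction. SNAI2, which encodes SLUG, was at 2.38 ± 0.709 CPM in untreated cells and 22.3 ± 9.08 CPM with IL-1β at day 21 (SD, n = 3, log2 fold change 3.23 ± 0.49 SE, adjusted p = 3.30e-05). It passed at day 15 (2.83 ± 0.48), day 21 and day 6 after withdrawal (2.86 ± 0.49, adjusted p = 0.000552), and at day 30 after withdrawal it was at 0.80 ± 0.49 (adjusted p = 0.732). ZEB2 passed at days 6, 15 and 21 and at day 6 after withdrawal, with its highest log2 fold change of 2.51 ± 0.41 at day 15 (adjusted p = 0.000102). Of 10 regulators of epithelial identity 5 had enough counts to test and 0 passed at any time point in edgeR's test or DESeq2, with an unadjusted p under 0.05 for 0, 2 and 1 at days 6, 15 and 21 and for 2, 0 and 0 after withdrawal, against 8.35% to 17.1% of all genes.

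For the 4 genes that passed, the genes of most similar pattern were sought among 13518 genes by Pearson's r over the 12 group means of log2 CPM, as a description, since the groups share the contrast of IL-1β against untreated cells. CDH1 was followed most closely by CNTN1 (r = 0.995), IGF1R (0.992) and NEDD9 (0.991). CLDN2 had RHOBTB1 (0.984), CGN (0.983) and PRICKLE2 (0.979), so that another tight junction gene stood among its nearest. CLDN1 had BIRC3, a known target of NF-κB (0.977), and TLR6 (0.965), and DSP had AFTPH (0.985), SLC27A2 (0.985) and MTUS1 (0.982).

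Exons of some junction genes are shared with neighbours, which limits what was counted for them. F11R shares 36.6% of its exonic bases with a readthrough gene on its own strand, to which 0.222 reads per library were assigned. CLDN2 shares 9.99% of its exonic bases with RIPPLY1 and CDH1 5.71% with a long non-coding RNA, both on the opposite strand and each with a mean of 0.278 reads. CLDN12 shares up to 7.92% with any one of 4 neighbours on its own strand. The partial copy of OCLN, OCLNP1, held 33 to 144 reads per library, so that OCLN values are uncertain to that extent.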

How the data were processed

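RNA from A549 cells was sequenced as single-end reads from stranded mRNA libraries. The authors deposited raw counts per Ensembl gene for each library, which they had not normalized. The submitters' processing notes name bcl2fastq 2.17, TopHat2 2.0.14, Bowtie2 2.2.5, HTSeq 0.6.1 and GRCh37, and the strand setting and annotation release are not given in the sources used here. Reads on no gene (8.48% to 18.6%) and ambiguous reads (2.62% to 4.18%) were left out, which left 9116032 to 23570026 per library.

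Groups, time points and replicate numbers came from the labels. Identifiers were matched to GENCODE v44lift37 for 55665 of 63677 genes. Low counts were filtered with filterByExpr and library sizes adjusted by TMM. A quasi-likelihood model of edgeR 4.0.16 (limma 3.58.1, R 4.3.3) with 1 term per group covered all 36 libraries and had 24 residual degrees of freedom. A gene passed at a Benjamini-Hochberg adjusted p under 0.05 over 19180 genes and a fold change over 2. CPM used the same scaling, log2 CPM a prior count of 2, and CPM per kb the union of annotated exons. Errors of log2 fold changes are standard errors, worked back from each edgeR estimate and its quasi-likelihood F statistic. The 95% intervals took these errors with the t distribution on 24 degrees of freedom. The model was tested on simulated data. Summaries and figures were made in Python 3.11.15 with pandas 2.3.3, numpy 2.4.6, matplotlib 3.10.9 and scipy 1.17.1.

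The 10 genes, the marker and junction lists, the tests and the alternatives were chosen with earlier results of these data known. By the rule for names, all 10 genes are named, from the other lists those that passed at 1 or more time points (at most 4 per list), and for the 4 genes that passed, the 3 genes of most similar pattern with a mean log2 CPM over 1. Some genes under these rules are not reported here.

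Pairing by replicate number was checked by correlating deviations from the group means. At day 21 the correlations of replicates 1 to 3 were 0.229, 0.197 and 0.259, and at day 30 after withdrawal 0.371, 0.464 and 0.310. They were 0.192, 0.090 and 0.375 at day 6 and 0.0709, 0.158 and 0.129 at day 15. Replicate 1 at day 6 after withdrawal (-0.114) and replicate 3 at day 15 after withdrawal (-0.336) were negative. The other correlations at these times were 0.556 to 0.718. The numbers, taken from the labels, were thus not shown to pair the libraries at every time point. The replicate block covered all 36 libraries alike. Alternatives were other scalings and filters, DESeq2 1.42.0, separate fits, a replicate block, each replicate left out, and the 11 libraries with over 10% mitochondrial counts left out or marked by a covariate. Promoter sequences and coordinates are from RefSeq (GRCh38.p14) and were not compared with GRCh37 positions.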

Additional observations from a re-analysis of the deposited data

How the results depend on the processing

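Counts of junction genes past both thresholds depended on the replicates. Leaving out each replicate in turn gave 1 to 2 genes at day 6 (4 with all libraries), 1 to 4 at day 15 (3), 2 to 4 at day 21 (4), 0 to 2 at day 6 after withdrawal (2), 0 to 1 at day 15 (1) and 0 to 1 at day 30 (1). For the differences of responses it gave 0 to 1 for day 21 against day 6 (0) and 0 to 1 for day 30 after withdrawal against day 21 (0). The lowest counts came without replicate 1, where 176 of 19205 genes passed at day 6 against 531 of 19180 with all libraries. With separate fits of 6 libraries the counts at days 6, 15 and 30 after withdrawal were 0, 0 and 0, and among all genes 1, 2 and 0 passed against 346, 183 and 172. Total counts without composition scaling gave 2 genes at day 6. Without the 11 libraries of high mitochondrial share the counts were 2 at day 6, 1 at day 6 after withdrawal and 0 at day 15 after withdrawal, and at both of these times a single untreated library remained that was assumed to vary like the others. For day 30 after withdrawal against day 21, 1 gene passed (CDH1) with DESeq2, with the replicate block, with the mitochondrial covariate (1) and with both (1).

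The replicate block changed 1 other call, DSP at day 6 after withdrawal (log2 fold change -1.08, edgeR's adjusted p = 0.0421). The correlation of replicate 1 was negative at that time point (-0.114). That gene passed there in 4 further alternatives as well, with total counts only, with no filter, with at least 10 counts in every library and with DESeq2 (adjusted p = 0.0100, 0.0403, 0.0474 and 0.0357). EPCAM at day 21 passed with the covariate and the block together (-1.33, adjusted p = 0.0310). Over 1418 single-gene values, 1369 stayed on the same side of the thresholds, 31 lost a call, 18 gained one and 0 reversed a called direction, while 98 values of genes not called changed sign. The cause of these changes was not tested. Depth limits EPCAM most, at 4 to 32 reads per library.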
